A study of Mus musculus with 12 samples.

Results

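The genes described here encode the major histocompatibility complex (MHC) class II antigen presentation apparatus of the mouse: Cd74, H2-Aa, H2-Ab1, H2-Eb1, H2-Oa, H2-DMa and H2-DMb1, together with Ciita, the master regulator of the class. They were taken by gene symbol, and all 8 were found among the 27503 genes of the deposited table. RNA was sequenced from B16F10 cells, an established mouse melanoma line, in 12 libraries, 3 for each of 4 groups. The groups were cells with IRF7-C435A given interferon alpha (IFNα), C435A cells without it, wild-type (WT) cells given IFNα, and WT control cells. IRF7 is a transcription factor of the type I interferon response, and C435A replaces one of its cysteines with alanine. How the mutation was made, whether a line is 1 clone, and at what dose and for how long IFNα was given, are not stated in the labels. The labels do not say whether the libraries of a group came from separate cultures, so that every p-value measures only the spread between these libraries.

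MHC class II molecules are pairs of an α and a β chain that show peptides of endocytosed protein to CD4+ T cells. The invariant chain, encoded by Cd74, holds the groove of a new pair shut until proteases trim it, and the H2-DM heterodimer then exchanges the remaining fragment for a peptide, while H2-O restrains H2-DM. Dendritic cells, B cells and macrophages make these proteins constantly. Most other cells, melanoma cells among them, make them mainly after interferon gamma, whose signal switches on CIITA, with IRF1 among the factors involved. CIITA does not bind DNA itself but docks on factors assembled on the X and Y boxes of class II promoters, RFX on the X box and NF-Y on the Y box. Type I interferons such as IFNα are better known for raising class I molecules.

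A pair of motifs resembling the X and Y boxes was searched for in the 250 bases before the annotated start, taken from RefSeq on the GRCm38.p6 build. That table held 5 of the 8 genes, H2-Aa, H2-Eb1, H2-Oa, H2-DMa and H2-DMb1. The sequences of the 4 that carried the pair are shown because CIITA acts through these boxes. Capitals mark an X-like motif, CNNGNAAC, followed after 24 to 27 bases by the Y motif TGATTGG (NF-Y's inverted CCAAT box). H2-Aa lies at chr17:34287824-34288073 on the minus strand, H2-Eb1 at chr17:34305617-34305866, H2-Oa at chr17:34092129-34092378 and H2-DMb1 at chr17:34152941-34153190, these on the plus strand.
H2-Aa: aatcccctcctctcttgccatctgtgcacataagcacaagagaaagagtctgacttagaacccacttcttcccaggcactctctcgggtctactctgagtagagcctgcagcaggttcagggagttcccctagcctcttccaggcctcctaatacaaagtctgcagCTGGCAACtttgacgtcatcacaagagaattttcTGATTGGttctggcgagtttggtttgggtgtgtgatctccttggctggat
H2-Eb1: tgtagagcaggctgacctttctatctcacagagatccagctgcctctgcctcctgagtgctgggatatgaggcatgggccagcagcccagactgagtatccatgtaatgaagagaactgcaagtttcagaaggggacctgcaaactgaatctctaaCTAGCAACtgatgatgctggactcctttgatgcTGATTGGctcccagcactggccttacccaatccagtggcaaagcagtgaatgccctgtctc
H2-Oa: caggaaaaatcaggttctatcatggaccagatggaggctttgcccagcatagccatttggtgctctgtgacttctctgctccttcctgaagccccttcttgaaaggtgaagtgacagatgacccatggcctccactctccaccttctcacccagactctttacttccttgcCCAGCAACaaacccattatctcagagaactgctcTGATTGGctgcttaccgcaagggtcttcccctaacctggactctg
H2-DMb1: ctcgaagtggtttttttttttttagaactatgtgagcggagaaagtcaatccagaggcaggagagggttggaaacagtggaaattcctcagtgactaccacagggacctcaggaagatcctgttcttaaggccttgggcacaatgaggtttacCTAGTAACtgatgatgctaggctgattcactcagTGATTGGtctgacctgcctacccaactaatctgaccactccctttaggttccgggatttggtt
In H2-Aa the X-like motif began 84 bases before the start and the Y motif 50 bases before it. The X-like motif began at 94 bases in H2-Eb1, at 79 in H2-Oa and at 97 in H2-DMb1, with the Y motif at 61, 45 and 63. The gap was 25 bases in H2-Eb1 and 26 in the other genes with the pair. H2-DMa, with 2 starts in that source, held no pair before either. As deposited, the gene has 7 transcripts over 34338515 to 34358075, and any further start was not searched. Whether H2-DMa has the boxes elsewhere is therefore not shown.

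The letters and the spacing were chosen after these sequences had been seen, so the match is a description. Both strands were searched over 32851 promoters of that length, and the motifs do not overlap within a pair. CNNGNAAC alone was in 33.3% of them and TGATTGG alone in 7.23%, whereas the pair was in 9 promoters (0.0274%). Those were H2-Aa, H2-Eb1, H2-Oa, H2-DMb1, H2-Eb2, BC051142, Fam72a, Stard7 and 1700048F04Rik. H2-Ob and H2-DMb2 held TGATTGG without the pair.

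**Figure D1:**
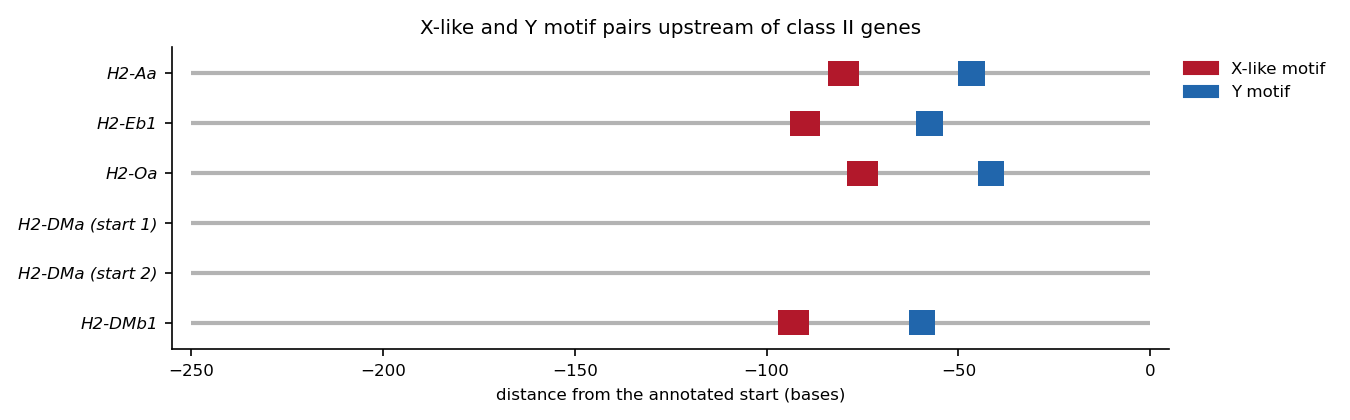
Positions of the X-like and Y motifs in bases before the annotated start (x axis) for the 6 starts of the 5 genes with a promoter sequence (rows); red boxes are X-like motifs, blue boxes Y motifs and grey bars the 250 bases searched. H2-Aa, H2-Eb1, H2-Oa and H2-DMb1 hold the pair with 25 or 26 bases between the boxes, and both H2-DMa starts searched hold none.

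The libraries differed in transcripts of lung epithelium, and the values are given first because they stand beside several results. Sftpc, the surfactant protein of alveolar type II cells, and Scgb1a1, the secretoglobin of airway club cells, together reached 0.0424, 0 and 38 CPM (counts scaled to library size) in IFNα-treated C435A libraries 1 to 3. They reached 29.9, 39.7 and 27.7 CPM in C435A control, 27.1, 27.7 and 40.2 CPM in IFNα-treated WT, and 23.1, 0 and 0.157 CPM in WT control libraries 1 to 3. Thus 8 libraries held lung transcripts at 1 CPM or more and 4 did not: all of C435A control and of IFNα-treated WT, but 1 of 3 in each of the other groups.

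The wider marker lists divided the same way in part. Over 12 lung epithelium markers the summed level was 50.4 to 74.5 CPM in the 8 libraries and 0.891 to 1.09 CPM in the other 4, with 0 to 1 and 8 to 10 markers at 0. Sftpc and Scgb1a1, which defined the 2 sets of libraries, are on that list, and the 10 markers without them summed to 22.9 to 36.5 and 0.849 to 1.06 CPM. Over 10 endothelial and fibroblast markers it was 12.3 to 20.0 and 5.88 to 7.21 CPM. The 20 leukocyte and antigen-presenting cell markers overlapped, at 54.7 to 91.7 and 67.3 to 86.4 CPM. By group these summed to 68.9 to 88.2 CPM in IFNα-treated C435A, 81.3 to 91.7 in C435A control, 54.7 to 65.1 in IFNα-treated WT and 67.3 to 75.8 in WT control.

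Macrophage-expressed genes were present in every library, with Cd68 at 9.4 to 14.7 and Csf1r at 2.18 to 4.6 FPKM (fragments per kilobase of transcript, scaled to library size). Defining markers of other antigen-presenting and lymphoid cells were mostly at 0, Ms4a1 of B cells in 10 libraries, Flt3 in 10 and Xcr1 of dendritic cells in 11, and Cd3e of T cells in 9. Chil3, abundant in alveolar macrophages, was 0.394 to 1.29 FPKM in the 8 libraries with lung transcripts and 0 in the other 4. Besides Chil3, only Itgax on that list divided without overlap. The macrophage marker Marco overlapped, at 0 to 0.392 and 0 to 0.0837 FPKM, as did Cd68 and Csf1r. Melanocyte genes dominated throughout, with 7 markers summing to 6960 to 9410 CPM. Library totals ran from 60511573 to 75927461 counts. Irf7 transcript was 4.63 to 7.23 FPKM in IFNα-treated C435A, 4.44 to 5.19 in C435A control, 8.45 to 9.87 in IFNα-treated WT and 11.6 to 12.8 in WT control, and gene counts do not show the altered codon. In bulk RNA, fewer cells of a type and less RNA per cell cannot be told apart.

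Among the 8 genes, Cd74 and H2-DMb1 were at 6.8 to 20.8 FPKM while each of the others was at 1.24 FPKM or lower in every library. Cd74 averaged 15.4 ± 4.98 FPKM in IFNα-treated C435A, 14.2 ± 0.766 in C435A control, 8.74 ± 0.31 in IFNα-treated WT and 9.17 ± 0.891 in WT control (SD, n = 3 each, as for all means below). H2-DMb1, the β chain of the peptide editor, averaged 9.2 ± 1.29, 11.2 ± 1.35, 7.34 ± 0.722 and 7.94 ± 0.759 FPKM in the same groups. Its partner chain H2-DMa averaged only 0.496 ± 0.0782, 0.371 ± 0.0806, 0.44 ± 0.0926 and 0.446 ± 0.0199 FPKM. The FPKM level of H2-DMa was thus more than 10-fold below that of H2-DMb1 in each group.

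The antigen-presenting chains were scarce, and Ciita was scarcest. H2-Aa, the α chain of I-A, was 0.0256 to 0.491 FPKM over the 12 libraries, its partner H2-Ab1 0.038 to 0.94 and H2-Eb1, the β chain of I-E, 0.185 to 0.834. H2-Oa, the α chain of H2-O, was 0.0361 to 1.24 FPKM. Ciita did not exceed 0.0351 FPKM (26 counts), and its counts in replicates 1 to 3 were 0, 0 and 9 in IFNα-treated C435A, 0, 8 and 9 in C435A control, 0, 4 and 26 in IFNα-treated WT, and 12, 4 and 22 in WT control. It was at 0 in 4 libraries, in which 3 counts, the limit that a count of 0 allows, would be 0.0395 to 0.0481 CPM of the unadjusted library total, for counting error only.

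The identifiers and positions as deposited were, on chromosome 17, H2-Oa (ENSMUSG00000024334, 34311314 to 34314208), H2-DMa (ENSMUSG00000037649, 34338515 to 34358075), H2-DMb1 (ENSMUSG00000079547, 34372046 to 34379204), H2-Ab1 (ENSMUSG00000073421, 34476663 to 34488393), H2-Aa (ENSMUSG00000036594, 34501718 to 34506797) and H2-Eb1 (ENSMUSG00000060586, 34524841 to 34535648). Cd74 (ENSMUSG00000024610) was on chromosome 18 at 60936920 to 60945718 and Ciita (ENSMUSG00000022504) on chromosome 16 at 10297923 to 10344290. All are protein-coding and on the plus strand except H2-Aa on the minus strand. None of the 8 starts equals that of the GRCm38 annotation, so these positions are not on the coordinates of the promoters above. As listed, H2-DMa overlaps Brd2, Ciita overlaps Dexi and H2-Oa overlaps BC051537, each on the opposite strand. Cd74 overlaps Mir5107 on its own strand, and H2-DMa also overlaps the predicted genes Gm50336 on its own strand and Gm20493 and Gm50335 on the opposite one. No source used here says whether strand was used in counting, so reads in those overlaps cannot be assigned. H2-DMb1 has a close copy, H2-DMb2, at 0.19 FPKM on average, and reads between them may be split.

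**Figure D2:**
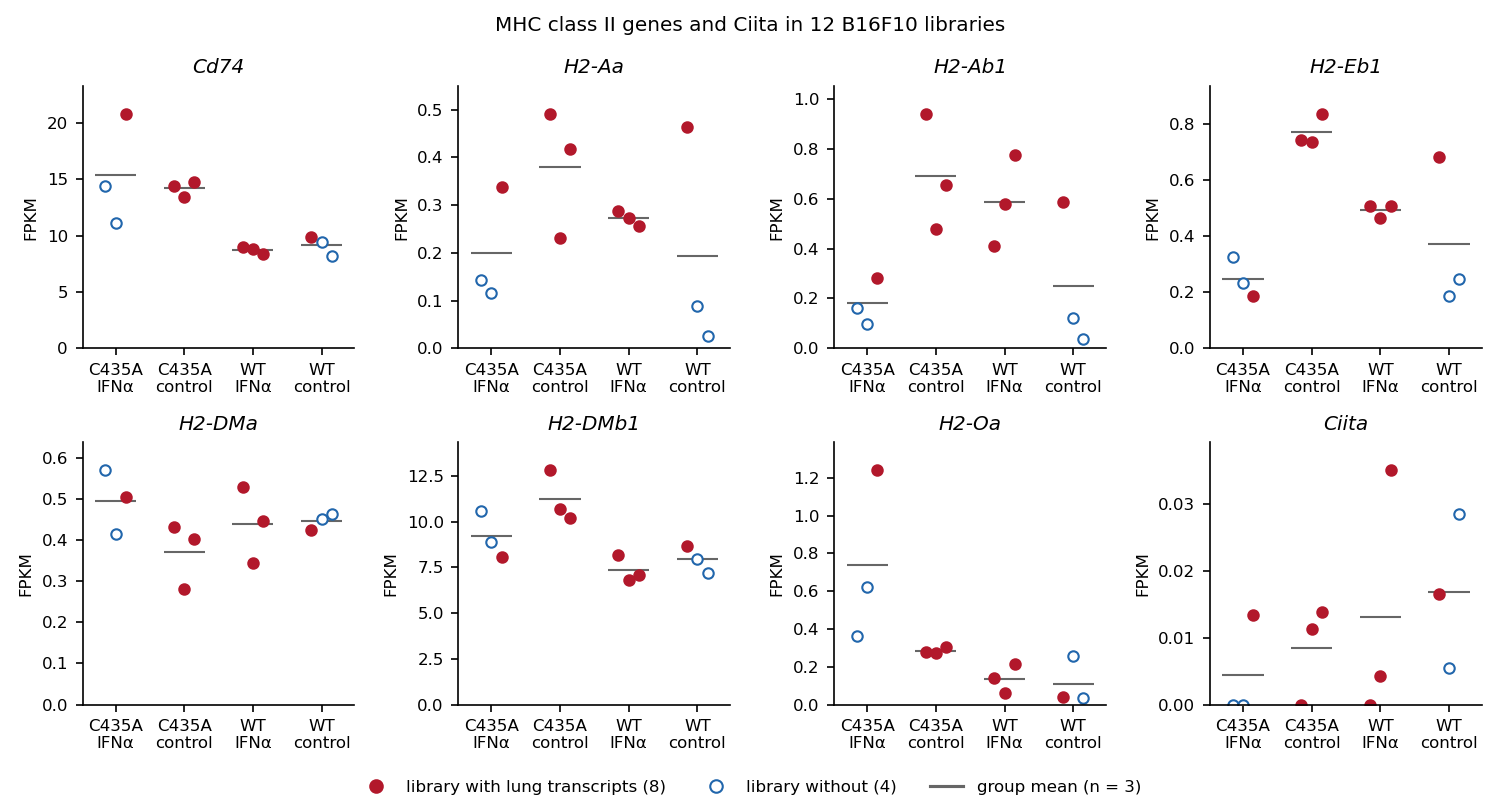
FPKM of each of the 8 genes (y axis, linear, from 0) in the 12 libraries by group (x axis); filled red points are the 8 libraries with lung transcripts, open blue points the 4 without, and bars are group means of 3 libraries. H2-Aa and H2-Ab1 are higher in every filled point than in any open one, while Cd74, H2-DMb1 and H2-DMa mix.

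The order of the 4 groups differed between genes. For Cd74, IFNα-treated C435A and C435A control overlapped, as did WT control and IFNα-treated WT, but no C435A library overlapped a WT one. For H2-DMb1 the order was C435A control, IFNα-treated C435A, WT control and IFNα-treated WT, and each overlapped the next. For H2-Eb1, C435A control lay apart at the top and the other neighbours, IFNα-treated WT, WT control and IFNα-treated C435A, overlapped. H2-Oa stepped down without overlap over IFNα-treated C435A, C435A control and IFNα-treated WT, with WT control overlapping the last of these. For H2-Aa, H2-Ab1, H2-DMa and Ciita every neighbouring pair of groups overlapped.

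The I-A chains H2-Aa and H2-Ab1 divided with the lung transcripts. H2-Aa was 0.231 to 0.491 FPKM (59 to 134 counts) in the 8 libraries with lung transcripts and 0.0256 to 0.144 FPKM (8 to 42 counts) in the 4 without. H2-Ab1 was 0.283 to 0.94 FPKM (49 to 159 counts) and 0.038 to 0.162 FPKM (9 to 33 counts). Neither gene overlapped between the 2 sets, as was so, on the higher side, for 1.31% of the 17590 genes tested. H2-Eb1 overlapped, at 0.185 to 0.834 and 0.186 to 0.324 FPKM, with IFNα-treated C435A library 3, which held lung transcripts, the lowest of all 12.

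The same contrast could be read within 2 groups, where 1 library of 3 held lung transcripts. WT control library 1 stood at 8.14 times the mean of libraries 2 and 3 for H2-Aa, 7.44 times for H2-Ab1 and 3.16 times for H2-Eb1 in FPKM, against 1.13 times for Cd74 and 1.15 times for H2-DMb1. IFNα-treated C435A library 3 stood at 2.61 times the mean of libraries 1 and 2 for H2-Aa, 2.18 times for H2-Ab1 and 0.662 times for H2-Eb1, against 1.64 times for Cd74 and 2.53 times for H2-Oa. H2-Oa had the opposite sense in WT control, at 0.256 times.

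A term for libraries with lung transcripts, added to the edgeR fit, rests on those 2 groups, because in the others every library held them. With that term 0.677% of all genes were called at an adjusted p of 0.05. Its log2 coefficient was 2.28 ± 0.482 for H2-Aa (SE, adjusted p = 0.0528) and 2.04 ± 0.507 for H2-Ab1 (adjusted p = 0.127), neither past the threshold. It was 0.77 ± 0.451 for H2-Eb1, 0.51 ± 0.158 for Cd74 (adjusted p = 0.284), 0.03 ± 0.164 for H2-DMb1 and 0.03 ± 0.267 for H2-DMa. In the same test 7 of the 10 lung markers other than Sftpc and Scgb1a1, whose levels defined the term, 6 of 9 tested endothelial and fibroblast markers and 2 of 14 tested leukocyte markers, Itgax and Chil3, were called, all higher.

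The ratio of invariant chain to presenting chains fell into 2 ranges. The FPKM of Cd74 divided by the mean FPKM of H2-Aa, H2-Ab1 and H2-Eb1 was 16.4 to 27.8 in 7 of the libraries with lung transcripts and 68.7 to 79.4 in the 4 without. The eighth, IFNα-treated C435A library 3, had a ratio of 77.5. Its Cd74 was the highest of all 12 at 20.8 FPKM, and its summed chains, at 2.62 CPM, were the lowest of the 8. The summed CPM of the 3 chains was 2.62 to 6.22 in libraries with lung transcripts and 0.664 to 1.75 in those without, while Cd74 was 14.1 to 38.1 and 13 to 26.2 CPM.

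**Figure D3:**
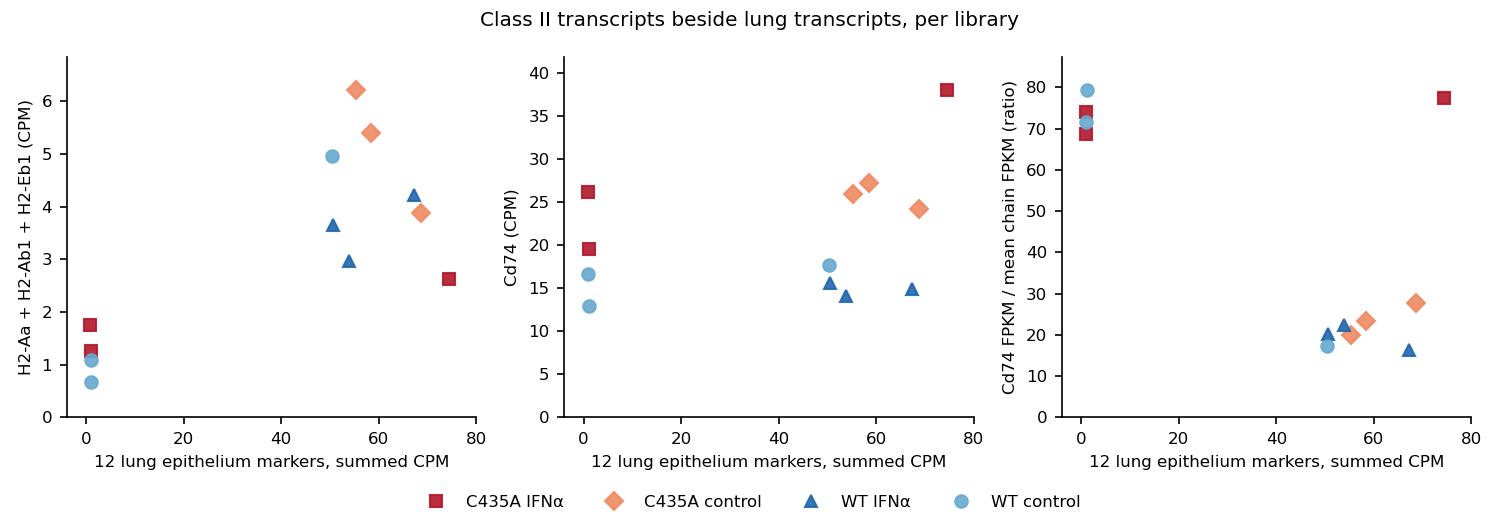
Summed CPM of 12 lung epithelium markers (x axis) against the summed CPM of H2-Aa, H2-Ab1 and H2-Eb1 (left), Cd74 CPM (middle) and the FPKM ratio of Cd74 to the mean of the chains (right), 1 point per library, with colour and shape for the group. The 4 libraries near 0 on the x axis have the lowest chain sums, 0.664 to 1.75 CPM, and Cd74 levels of 13 to 26.2 CPM that overlap those of the rest.

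The first comparison asks what IFNα did in C435A cells. The presenting β chains were lower in every library with IFNα, but none of the 8 genes passed the edgeR quasi-likelihood test adjusted over 17590 genes, where 0.00569% of all genes did. H2-Ab1 was 0.162, 0.0978 and 0.283 FPKM in IFNα-treated libraries 1 to 3, against 0.940, 0.478 and 0.654 FPKM in C435A control. H2-Eb1 was 0.324, 0.234 and 0.185 FPKM with IFNα, against 0.742, 0.733 and 0.834 FPKM in control. For both genes every treated library lay below every control. H2-Aa was 0.144, 0.116 and 0.339 FPKM with IFNα, against 0.491, 0.231 and 0.417 FPKM in control, and the groups overlapped.

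The log2 fold change was −1.91 ± 0.705 for H2-Ab1 (SE, 95% limits −3.42 to −0.39, adjusted p = 0.412) and −1.65 ± 0.451 for H2-Eb1 (−2.62 to −0.68, adjusted p = 0.305). Lung transcripts were in 1 of 3 treated and 3 of 3 control libraries here. With the lung term the values were −0.61 ± 0.626 and −1.05 ± 0.562. Within libraries that held lung transcripts, where the treated arm is library 3 alone and is assumed to vary like the others, H2-Eb1 was −2.06 and passed (adjusted p = 0.0237), beside 5.91% of all genes called in that fit. H2-Oa had the opposite direction, at 0.362, 0.620 and 1.24 FPKM with IFNα and 0.278, 0.271 and 0.307 FPKM in control, a change of 1.34 ± 0.745 (adjusted p = 0.556).

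Cd74 changed by 0.10 ± 0.195 (95% limits −0.32 to 0.52), H2-DMb1 by −0.31 ± 0.15 (−0.63 to 0.01) and H2-DMa by 0.39 ± 0.25 (−0.15 to 0.92), none past the test. Of the 8 genes, 1 lay higher without overlap and 2 lower, where 9.75% and 8.29% of all genes did. At an unadjusted p under 0.05 there were 2, both lower, beside 10.3% of all genes. The median over the 8 was −0.62, beside −0.01 over all genes tested. DESeq2 called 0 of the 8 and 0.952% of all genes.

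In WT cells IFNα gave no call either, beside 0.0227% of all genes. Cd74 was 9.02, 8.81 and 8.41 FPKM in IFNα-treated WT libraries, against 9.91, 9.41 and 8.18 FPKM in WT control, and the groups overlapped. Its log2 change was −0.09 ± 0.196, with 95% limits of −0.51 and 0.33. H2-DMb1 at −0.14 (−0.46 to 0.18) and H2-DMa at −0.05 (−0.58 to 0.48) also had limits on both sides of 0.

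H2-Aa was 0.288, 0.273 and 0.257 FPKM with IFNα, against 0.464, 0.0884 and 0.0256 FPKM in WT control, where library 1 with its lung transcripts was above all treated libraries and the other controls were below them. H2-Ab1 was 0.410, 0.578 and 0.775 FPKM with IFNα, against 0.588, 0.120 and 0.038 FPKM in control. Their changes were 0.44 ± 0.727 and 1.18 ± 0.686 (adjusted p = 1 and 0.979). Without control library 1 they were 2.22 and 2.81 (adjusted p = 0.414 and 0.265). Within the libraries that held lung transcripts, where the control arm is library 1 alone, they were −0.84 and −0.06.

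Groups did not overlap for 0 of the 8 genes in this comparison, beside 4.77% of all genes on the higher and 5.08% on the lower side. DESeq2 called 0 of the 8 and 0.387% of all genes, and limma on log2(FPKM + 1) called 0 of the 8 in this and in every other comparison. At an unadjusted p under 0.05 there were 0, beside 5.44% of all genes, and the median of the 8 was 0.15, beside 0.02 over all. Ciita had 0, 4 and 26 counts with IFNα, against 12, 4 and 22 counts in control. Its change of −0.23 ± 1.65 has limits of −3.77 and 3.31. With so few counts and this spread between libraries, a difference was not detectable.

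The next comparison sets C435A against WT, both with IFNα. Cd74 was 14.4, 11.1 and 20.8 FPKM in IFNα-treated C435A libraries (1853, 1425 and 2295 counts), against 9.02, 8.81 and 8.41 FPKM in IFNα-treated WT libraries (1199, 1141 and 1058 counts). Every C435A library was above every WT library, and library 3, the highest, also held lung transcripts, as did all the WT libraries. The log2 fold change was 0.91 ± 0.197 (95% limits 0.49 to 1.34), short of the threshold in edgeR with an adjusted p of 0.054. None of the 8 genes passed, beside 0.597% of all genes.

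The value for Cd74 depended on the fit. DESeq2 gave 0.92 (adjusted p = 0.0011), with 4.02% of all genes called. The lung term gave 1.21 ± 0.178 (adjusted p = 0.0133), with 0.569% of all genes called. Among libraries with lung transcripts, where C435A is library 3 alone, it was 1.36 (adjusted p = 0.00132), with 5.92% called. Without C435A library 2 it was 1.11 (adjusted p = 0.0226), with 0.235% called, and without library 3 it was 0.62 (adjusted p = 0.103).

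H2-Oa was 0.362, 0.620 and 1.24 FPKM in IFNα-treated C435A (40, 67 and 116 counts), against 0.138, 0.0598 and 0.215 FPKM in IFNα-treated WT (16, 7 and 24 counts). All C435A libraries were above all WT ones, and the log2 fold change was 2.45 ± 0.777 (0.78 to 4.12, adjusted p = 0.179). DESeq2 passed it, at 2.46 (adjusted p = 0.0396), as did the fit on libraries with lung transcripts, at 3.21 (adjusted p = 0.0257). H2-DMb1 was 0.42 ± 0.15 higher (adjusted p = 0.225), at 10.6, 8.88 and 8.09 FPKM in C435A and 8.16, 6.80 and 7.07 FPKM in WT. The ranges overlapped, the lowest C435A library lying below the highest WT library.

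The presenting chains pointed the other way. H2-Ab1 was 0.162, 0.0978 and 0.283 FPKM in C435A, against 0.410, 0.578 and 0.775 FPKM in WT, a log2 fold change of −1.59 ± 0.7 (adjusted p = 0.336). H2-Eb1, with 0.185 to 0.324 FPKM in C435A and 0.464 to 0.507 FPKM in WT, gave −0.90 ± 0.447 (adjusted p = 0.4). With the lung term these became −0.29 ± 0.622 and −0.30 ± 0.555. For H2-Aa the change was −0.36 ± 0.727 without the term and 1.03 ± 0.578 with it. Lung transcripts were in 1 of 3 C435A and 3 of 3 WT libraries.

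In this comparison 2 genes of the 8 lay higher without overlap and 2 lower, where 6.47% and 12.1% of all genes did. At an unadjusted p under 0.05 there were 4, of which 3 were higher, beside 13.7% of all genes. The median log2 fold change was −0.04, beside −0.01 over all. The leukocyte list, of which 14 markers were tested, had 0 called and 10 with a positive change, beside 48.5% of all genes, with a median of 0.31. Its part in the Cd74 difference was not tested.

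Without IFNα, 4 of the 8 genes were higher in every C435A control library than in every WT control library. The same was so for 8.65% of all genes tested. Cd74 was 14.4, 13.4 and 14.8 FPKM in C435A control, against 9.91, 9.41 and 8.18 FPKM in WT control, without overlap. H2-DMb1 was 12.8, 10.7 and 10.2 FPKM in C435A control, against 8.69, 7.96 and 7.17 FPKM in WT control, also without overlap. The log2 fold changes were 0.72 ± 0.196 (0.30 to 1.14, adjusted p = 0.212) and 0.59 ± 0.15 (0.27 to 0.92, adjusted p = 0.168). No gene of the 8 passed in edgeR, beside 0.165% of all genes, while DESeq2 passed Cd74 at 0.71 (adjusted p = 0.0495) and H2-DMb1 at 0.58 (adjusted p = 0.0299), with 1.26% of all genes called.

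For H2-Eb1 the values were 0.742, 0.733 and 0.834 FPKM in C435A control, against 0.681, 0.186 and 0.245 FPKM in WT control, where library 1, which held lung transcripts, came close to the C435A libraries. Its change was 1.13 ± 0.442 (adjusted p = 0.39), and that of H2-Ab1 1.50 ± 0.69 (adjusted p = 0.46). Without WT control library 1 they were 1.98 and 3.13 (adjusted p = 0.0697 and 0.0731). H2-Oa, at 0.278, 0.271 and 0.307 FPKM in C435A control and 0.0373, 0.255 and 0.0361 FPKM in WT control, gave 1.45 ± 0.774.

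Lung transcripts were in 3 of 3 C435A control and 1 of 3 WT control libraries. With the lung term Cd74 was 0.39 ± 0.19 (adjusted p = 0.668), a smaller difference, whereas H2-DMb1 was 0.57 ± 0.188 (adjusted p = 0.531), as large as without it. The term also draws on IFNα-treated C435A library 3, outside this comparison. For Cd74 that library stood at 1.64 times the mean of libraries 1 and 2, and WT control library 1 at 1.13 times the other controls. Among libraries with lung transcripts only, where WT control is library 1 alone, Cd74 was 0.55 and H2-DMb1 0.40 higher in C435A. Of the leukocyte markers 13 of 14 tested had a positive change, beside 50.6% of all genes, and 0 were called, with a median of 0.47, and their part in the Cd74 difference was not tested. H2-DMa, at 0.432, 0.280 and 0.402 FPKM in C435A control and 0.424, 0.450 and 0.463 FPKM in WT control, gave −0.16 ± 0.25. Of the 8 genes, 4 lay higher without overlap (Cd74, H2-Eb1, H2-Oa and H2-DMb1), beside 8.65% of all genes, and 0 lower, beside 12.7%. The median of the 8 was 0.88, beside 0 over all genes, and 4 had an unadjusted p under 0.05, all higher, beside 10.7% of all genes.

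**Figure D4:**
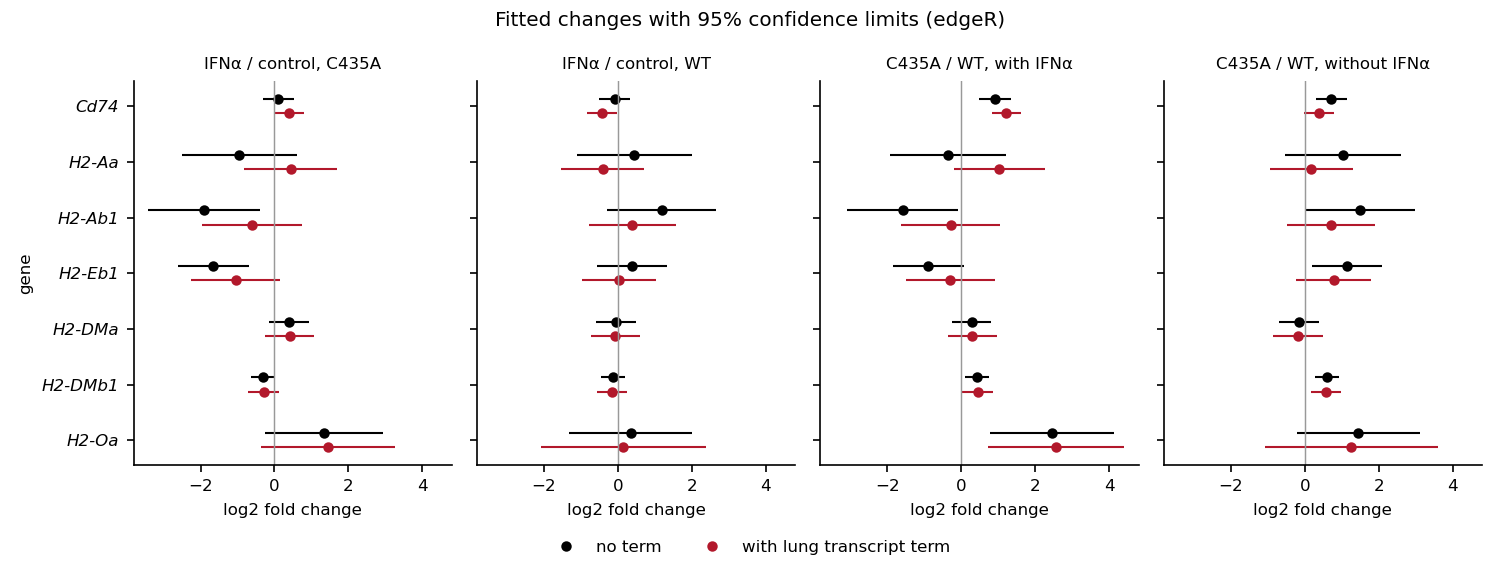
Log2 fold changes (x axis) with 95% confidence limits from edgeR for 7 of the 8 genes (rows) in the 4 comparisons, without (black) and with (red) a term for lung transcripts; Ciita is left out because its limits span several units. Cd74 lies above 0 between the genotypes in both fits with IFNα, at 0.91 and 1.21, and the chain estimates shift with the term.

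Whether IFNα acted differently in C435A than in WT was tested as an interaction. H2-Ab1 gave −3.09 ± 0.983 (−5.20 to −0.98) and H2-Eb1 −2.03 ± 0.628 (−3.38 to −0.68), each with an adjusted p of 0.916. No gene of the 8 passed, beside 0% of all genes in edgeR, and 2 had an unadjusted p under 0.05, beside 5.16%. DESeq2 called 0 of the 8 and 0.0604% of all. With the lung term they were −1.0 ± 0.958 and −1.08 ± 0.853. Lung transcripts were in 1 of 3 treated and 3 of 3 control libraries of C435A, and in 3 of 3 treated and 1 of 3 control libraries of WT. For Cd74 the interaction was 0.19 ± 0.276.

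In 4 lists of further genes of the class II pathway, only Irf1 was called in edgeR, in 1 of the 5 comparisons. Of 4 further class II chains, H2-DMb2 was tested and had no call, and H2-Ob averaged 0.0139 FPKM, below the filter. H2-Ea and H2-Eb2 were sought by symbol and by annotation identifier but not matched among the deposited genes, so they have no values here. H2-DMb2, like H2-Aa and H2-Ab1, was higher in every library with lung transcripts, at 0.165 to 0.38 FPKM, than in those without, at 0.0958 to 0.148 FPKM.

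The factors that bind the X and Y boxes were detected in all 12 libraries. Rfxank averaged 14.1 FPKM over the 12 libraries, Rfxap 5.79 and Rfx5 0.572, the 3 subunits of RFX. Of the NF-Y complex, Nfyc averaged 12.6 FPKM, Nfya 2.4 and Nfyb 1.54. All 7 promoter factors were tested and 0 were called in any comparison. The endosomal machinery was abundant, with the proteases Ctsd at 1020, Ctsb at 46.7 and Lgmn at 37.4 FPKM. Ctss, which trims the invariant chain in antigen-presenting cells, averaged 7.58 FPKM and the thiol reductase Ifi30 28.7 FPKM, and 0 of 9 processing genes were called in any comparison.

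Of 10 genes on the route from interferon gamma to Ciita, 9 were tested and 1 was called, for IFNα in WT, where 0.0227% of all genes were. Irf1, the transcription factor that acts on the Ciita promoter, rose with IFNα in WT cells, at 13.7 ± 1.92 FPKM, against 8.28 ± 0.755 FPKM in WT control, by 0.71 ± 0.0984 (adjusted p = 0.0202, higher in 3 of 3 libraries). In C435A it was 17.0 ± 0.477 FPKM with IFNα and 10.5 ± 0.756 FPKM in control, a change of 0.68 ± 0.0982 that missed the threshold (adjusted p = 0.0655), and the interaction was −0.03 ± 0.138. Socs1, the feedback inhibitor of the pathway, was 0.72 ± 0.212 higher with IFNα in WT and 0.87 ± 0.214 higher in C435A, without passing (adjusted p = 0.58 and 0.274). Ifng itself had 12 counts in all, with 10 libraries at 0.

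By the rule for likeness, the profile of summed Cd74, H2-Aa, H2-Ab1 and H2-Eb1 over the 12 libraries (log2(CPM + 1), 8573 genes with a mean CPM of at least 5) was most like Lilrb4b (Pearson r = 0.966), Smim11 (0.945), Il10rb (0.94), Rpl27 (0.932) and H3f3b (0.919). That sum is mostly Cd74. For Ciita the closest were Brd7 (0.811), Jmjd8 (0.809), Pdlim1 (0.775), Ewsr1 (0.741) and Myo1e (0.708). These are descriptions over libraries that share depth and group structure, and they were picked as the highest among all genes compared.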

How the data were processed

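RNA of B16F10 cells was measured in 12 poly(A)-selected, dUTP-stranded libraries, per the labels' protocols, and grouped by sample title. Per the submitters' processing notes, HISAT2 2.0.4 and StringTie 1.3.4d, with cutadapt 1.9 and UMI-tools, were among the tools and GRCm38 was the build, without roles or order, and how reads were counted or whether molecular identifiers were used is not given in the sources used here. The authors deposited 1 table with a whole-number count per gene and library, unscaled, per the file headers, and an FPKM, which the authors had normalised to length and depth. Multiples of 4 made up 33.6% of deposited counts between 1 and 30, beside 23.3% of the whole numbers there, so a count may not be 1 fragment, and intervals from counting error alone may be too narrow. Libraries of a group differed by an SD of 0.232 to 0.438 (log2 ratio, 6318 genes whose mean count was 1000 or more).

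The counts were tested with edgeR 4.0.16 in R 4.3.3 (TMM, filterByExpr keeping 17590 genes, 4 group means over 12 libraries, quasi-likelihood F test, two-sided, Benjamini-Hochberg over all genes tested, threshold 0.05; common biological coefficient of variation 28.9%). All 8 genes passed the filter. CPM are counts scaled to the TMM-adjusted library total. Standard errors are the fold change divided by the square root of F. The code was tested on simulated data. A library held lung transcripts where Sftpc and Scgb1a1 together reached 1 CPM. Alternatives were DESeq2 1.42.0, its size factors, library totals, no filter, limma 3.58.1 on log2(FPKM + 1) and log2(FPKM + 0.1), a lung transcript term, libraries with lung transcripts only, a replicate block and leaving out each library. Named are all 8 genes, called members of each list with its 3 highest by FPKM, other list members chosen for their role after their values were seen, and the 5 genes most alike. The values of 1 list member are not reported here. The 8 genes and the lists were chosen with earlier results of these data known. GRCm38 annotation held 95.1% of the identifiers, but 2.17% of 26160 starts were equal, so coordinates of genes are given as deposited.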

Additional observations from a re-analysis of the deposited data

How the results depend on the processing

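Over 40 results (8 genes in 5 comparisons) and 840 alternative values, 804 kept their direction and side of the threshold, 27 reversed and 9 passed the threshold that the reported value missed. The number of the 8 genes called was 0 in each comparison. For IFNα in C435A it was 1 among libraries with lung transcripts only. For C435A against WT with IFNα it was 2 with DESeq2, 1 with the lung term, 2 among libraries with lung transcripts only, and 0 to 1 when a library was left out. For C435A against WT without IFNα it was 2 with DESeq2. With the lung term H2-Aa reversed for IFNα in C435A (0.44), IFNα in WT (−0.41), C435A with IFNα (1.03) and the interaction (0.85), and Ciita in the interaction (2.0). Among libraries with lung transcripts only, reversals were, for IFNα in WT, H2-Aa (−0.84), H2-Ab1 (−0.06) and H2-Eb1 (−0.54), for C435A with IFNα, H2-Aa (0.42) and Ciita (0.10), for C435A without IFNα, H2-Aa (−0.25), for IFNα in C435A, Ciita (0.67), and for the interaction, H2-Aa (0.67) and Ciita (0.94). Leaving out a library gave ranges across 0 for Cd74 with IFNα in C435A (−0.19 to 0.30) and in the interaction (−0.10 to 0.39); for IFNα in WT, H2-Aa (−0.09 to 2.22), H2-Oa (−0.19 to 1.95), H2-DMa (−0.15 to 0.07) and Ciita (−2.53 to 0.34); for Ciita in C435A against WT with IFNα (−6.32 to 0.82) and the interaction (−5.53 to 1.62); and for H2-Oa in the interaction (−0.61 to 1.53). The cause was not tested. Where leaving out a library leaves 2, or the lung split leaves 1, the spread is pooled over groups.

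Same-numbered libraries did not deviate together (correlations −0.297 to 0.107 over 18 pairs), so the numbers were not used to pair them. With the replicate block 0 of the 8 genes were called and Cd74 with IFNα was 0.89 (adjusted p = 0.0996). Over all genes, calls for IFNα in C435A, IFNα in WT, C435A with IFNα, C435A without IFNα and the interaction numbered 1, 4, 105, 29 and 0. They were 0, 2, 59, 17 and 0 with the block, 175, 69, 632, 232 and 14 with DESeq2, and 1135, 3, 1136, 16 and 47 among libraries with lung transcripts only. Counts of 0 to 26 for Ciita, and at most 159 for the presenting chains, limit what could be detected.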
